A study of Bombyx mori with 64 samples.

Results

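The larval fat body of the silkworm (Bombyx mori) was compared with the other tissues of fifth-instar day 3 larvae in its miRNA signals. The fat body was represented by the 4 arrays labelled as fat body of day 3 larvae, from 1 female and 1 male RNA specimen, each hybridized to slides a and b. They are 4 of 36 day 3 arrays (2 of 18 specimens) and of 64 arrays (32 specimens) in all. The other 32 day 3 arrays came from head (HD), body wall (BW), anterior and posterior silk gland (ASG, PSG), midgut (MG), hemocyte (HC) and malpighian tubule (MT), each with a female and a male specimen, and from 1 ovary (OV) and 1 testis (TE) specimen. All larvae belonged to DaZao, a bivoltine strain, and were fed on mulberry leaves without any treatment. A further 14 specimens of mixed sex, from day 7 larvae to pupae, held 4 of fat body. Slides a and b hold the same RNA, so n counts specimens, and the fat body has n = 2. How many animals went into a specimen is not given in the sources used here, so p-values measure the spread between these specimens only. At day 3 the female and the male specimen served as the replicates of a tissue. That spread therefore holds the differences between the sexes.

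The insect fat body is the organ of intermediary metabolism and storage. It takes up nutrients in the feeding larva, stores fat, glycogen and protein, and releases storage proteins, sugars and immune peptides into the hemolymph. miRNAs are short RNAs that guide Argonaute proteins to partly complementary messenger RNAs and lower the output of protein from them. In Drosophila, fat body miRNAs are known to act on insulin signalling and fat storage.

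The array held 106 miRNA probes, named SW with a serial number. The files do not pair them with miRNAs, so any name is inferred. SW-7 was tied to miR-1, a miRNA of muscle in Drosophila, by its signal in the female head. A further 17 probes were tied to 16 miRNAs because their female to male ratios on slides a and b matched, within 0.06 and in at least 2 tissues, the ratios listed by name in the study. This step was added after the values had been seen, and no probe was tied to 2 miRNAs. It tied SW-45 to miR-8, SW-25 to bantam, SW-68 to miR-1, SW-59 to miR-34b, SW-40 to miR-228, SW-41 to miR-275, SW-55 to miR-276-3p, SW-46 to miR-2a, SW-72 to miR-184-3p, SW-27 to miR-31a, SW-57 to miR-79, and SW-53 and SW-76 both to let-7a. Some miRNAs have more than 1 probe on the array, so a count of probes is not a count of miRNAs. The labelled tissue could not be checked, since no tied miRNA defines the fat body here. The paper describes miR-252 as strongest in the fat body during metamorphosis. SW-18 matched the sex ratios listed for miR-252, which are given for body wall alone, short of the 2 tissues needed for a tie. The paper also lists miR-252 as expressed in head, body wall, fat body, ovary, testis and malpighian tubule. It names miR-252 among the miRNAs female-biased in the tubule. SW-18 had means of 2014 to 10466 in these tissues and 138 to 747 in the others. Its female to male ratio was 2.66 in the tubule. The probe was still left untied. Signals of different probes also depend on how well each probe binds, so levels are set against each other only within a probe. The RNA is that of a whole tissue, in which fewer cells of a type and less RNA per cell cannot be told apart.

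The fat body arrays were dim in most probes. Their median normalized signal over 106 probes was 120 to 172, and 38 to 47 probes lay under 100. The hemocyte arrays had 66 to 75 probes under 100 and medians of 12.8 to 36, whereas medians were 628.5 to 1446 in the body wall and 788 to 1018 in the malpighian tubule. The scaling factors were 1.08 to 1.32 in the fat body and 0.635 to 3.17 in the other tissues, and between 24 and 31 of 318 spots on a fat body array had a net signal not above background. Slides a and b had a Pearson correlation of 0.986 in the female and 0.988 in the male over the log2 signals of all probes. The names of the array files carry a number that took 9 values over the day 3 arrays, and whose meaning is not stated. The fat body was alone under its number, so the tissue and whatever the number marks cannot be told apart. Body wall and malpighian tubule shared numbers with arrays of later stages, and their blank control spots reached 2712 and 2160, against 11 to 13 in the fat body.

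At the expression threshold of the study, a normalized signal of 1000, 20 of the 106 probes were expressed in at least 1 fat body specimen, 17 of them in both sexes. By the mean of the 4 arrays, 2 probes had 10000 or more (SW-45 and SW-38), 3 more passed 5000 (SW-58, SW-25 and SW-18), 14 more passed 1000 and 1 (SW-7) stayed below. Of the other 86 probes, 29 lay under 100 on all 4 arrays. Female and male fat body had a Pearson correlation of 0.971 across the 55 probes tested below, and 24 of these were higher in each sex.

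**Figure D1:**
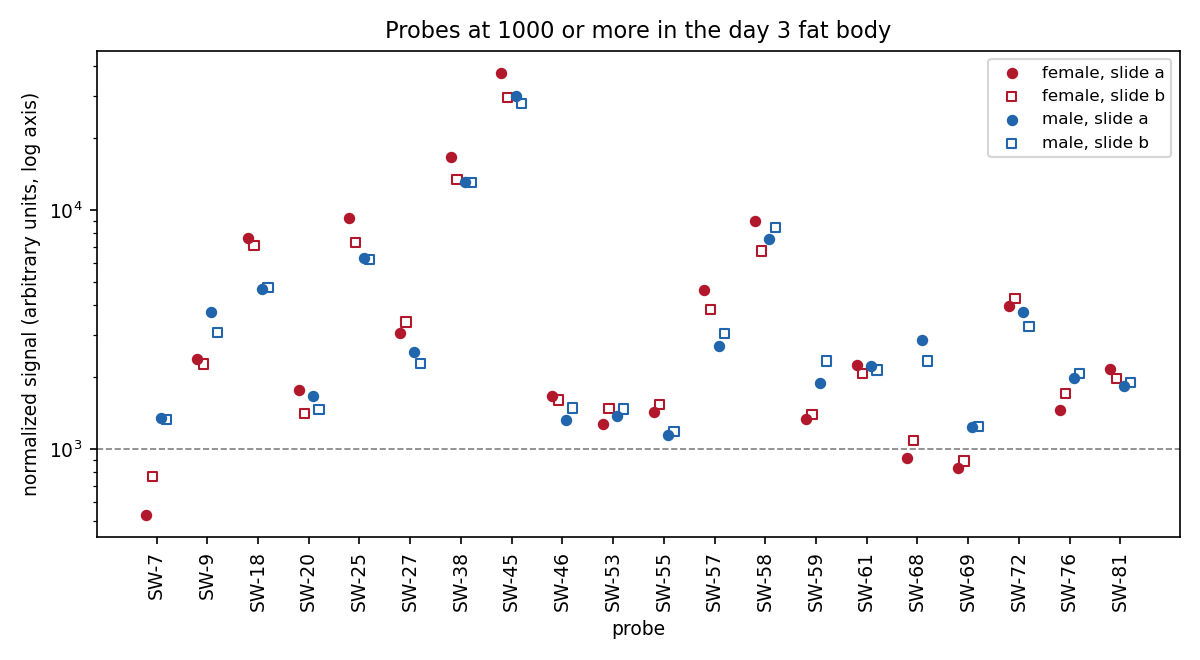
Normalized signals (log axis) of the 20 probes expressed in the day 3 fat body, by probe number, with 1 point per array: female in red, male in blue, slide a filled, slide b open, and the threshold of 1000 dashed. For SW-68, SW-69 and SW-7 the points of the female lie below those of the male and at or under about 1000, while most other probes have their 4 points close together.

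Of the 20 probes, 12 reached a mean of 1000 in all 10 tissues, namely SW-45, SW-38, SW-58, SW-25, SW-57, SW-9, SW-61, SW-76, SW-59, SW-46, SW-53 and SW-69. Among them, SW-58 had signals of 9018 and 6747 on the female slides and 7591 and 8435 on the male slides, and SW-25 had 9303 and 7335 against 6272 and 6208. Both lay within the range of the other tissues, from 3272 (SW-58) and 3267 (SW-25) in the midgut to 14718 and 15138 in the head. SW-61 varied little, with 2237, 2076, 2223 and 2141 on the 4 fat body arrays and tissue means of 1641 (hemocyte) to 4585 (head) elsewhere. SW-76 lay at 1463 to 2071 and SW-53 at 1275 to 1481, both of them within the span of the remaining tissues. None of these 5 nor SW-57 (2702 to 4626) or SW-27 (2285 to 3406) passed the test against the other tissues.

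Which probes set the fat body apart was asked with a contrast of its mean log2 signal against the mean of the 9 other tissues, by limma over the 55 probes that reached 1000 in at least 2 specimens. All 20 expressed probes were among these 55, but the filter also kept probes that are bright only elsewhere. The fat body was higher for 5 probes (9.09%) and lower for 33 (60%). The balance of directions went with a median difference over the 55 probes of -0.98 on the log2 scale, and its cause was not tested. After centring of the array medians this median was -0.16, with 11 probes higher and 16 lower, and after quantile normalization it was -0.11, with 12 higher and 18 lower. All 5 higher probes and 14 of the 33 lower ones passed in the same direction under both. Without body wall and malpighian tubule the median was -0.48. SW-5, SW-9, SW-22, SW-32, SW-37, SW-55, SW-56, SW-64, SW-65 and SW-106 then no longer passed as lower. Of these, SW-5, SW-32, SW-37 and SW-65 reached 1000 only in specimens of body wall and malpighian tubule. Their means in other tissues were at most 257.

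**Figure D2:**
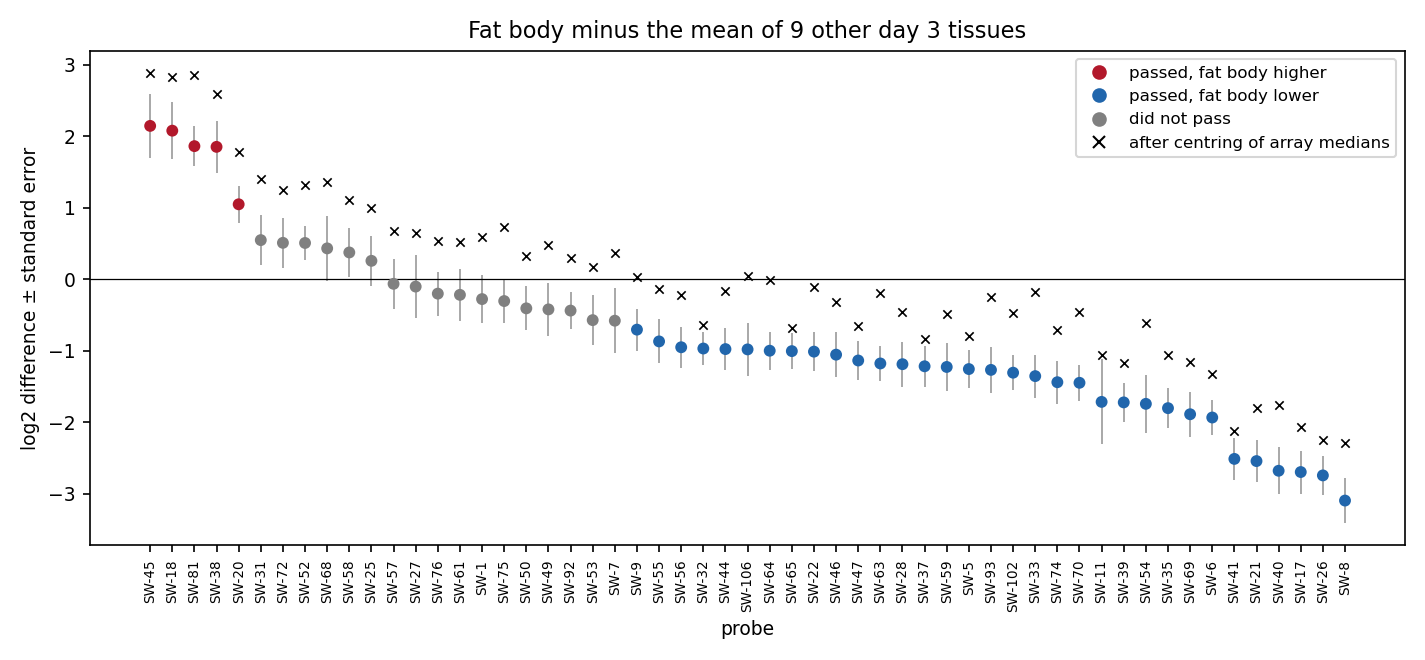
Log2 difference (vertical axis) between the fat body and the mean of the 9 other day 3 tissues for the 55 tested probes, with standard errors, red where the fat body was higher, blue where it was lower and grey where the test was not passed, and crosses for the same difference after centring of array medians. SW-45, SW-18, SW-81, SW-38 and SW-20 stand above 0 by both measures, and SW-8, SW-26, SW-17, SW-40, SW-21 and SW-41 stand lowest.

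SW-45, tied to miR-8, was the probe with the largest positive difference. In Drosophila, miR-8 acts in the fat body on insulin signalling and body growth. Its signals in the fat body were 37544 and 29572 in the female and 30092 and 27860 in the male. Both specimens lay above all 16 other specimens, of which a malpighian tubule (female, 22401) and a head (female, 20832) came next. The fat body was 2.14 higher than the mean of the other tissues in log2 units (standard error 0.44, adjusted p = 0.000439). Against single tissues it passed for 7 of 9, from 1.42 over the malpighian tubule to 3.94 over the midgut. It was 0.82 over the head (adjusted p = 0.193) and 1.74 over the ovary (adjusted p = 0.094), which did not pass.

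SW-38 had a similar pattern. The 4 arrays gave 16678, 13436, 13093 and 13007, and both fat body specimens again lay above the 16 others, whose highest was a male body wall at 11050. The difference was 1.85 (standard error 0.37, adjusted p = 0.000299). SW-38 was higher than in 8 of 9 tissues. The exception was the head, where the difference of 0.64 had an adjusted p of 0.216. SW-38 matched the sex ratios of miR-200b in malpighian tubule, the 1 tissue listed for it, too few for a tie. The probe sequences the paper gives for miR-200b and miR-8 overlap over most of their length. SW-38 and SW-45 may thus read the same RNA and need not be separate markers, which was not tested.

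SW-18 had a graded distribution over the tissues. In the fat body it had signals of 7638 and 7102 in the female and 4662 and 4729 in the male. Higher means were found in testis (10466), ovary (9399) and head (9101), while in the silk gland sections and the midgut it lay between 138 and 258. The difference from the mean of the other tissues was 2.08 (standard error 0.40, adjusted p = 0.000226). It passed against 6 tissues, by 5.41 over the posterior silk gland, 5.10 over the midgut and 4.51 over the anterior silk gland, and differences from head, ovary and testis, of -0.63, -0.68 and -0.83, did not pass. The fat body thus stood with head and gonads in this probe, and its 2 specimens lay above the 12 specimens of the remaining tissues.

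SW-81 was a probe of intermediate signal, at 2162 and 1978 in the female and 1839 and 1898 in the male fat body. Only the male body wall, at 2563, was higher among the other 16 specimens. The hemocyte lay under 100 in both sexes, and the head at 197 and 109. The difference from the other tissues was 1.86 (standard error 0.28, adjusted p = 1.91e-05), with 5 tissues passed: hemocyte (4.30), head (3.74), posterior silk gland (3.14), malpighian tubule (1.01), and the anterior silk gland. The hemocyte value rests on the floor of 100 and is a lower bound. Body wall, midgut, ovary and testis lay within 0.72 of the fat body on the log2 scale and did not pass.

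SW-20 had signals of 1770, 1406, 1671 and 1464 in the fat body, and it separated the tissues into a low and a high set. Posterior silk gland, midgut, testis and anterior silk gland had 144 to 277, whereas the hemocyte had 4563 and the head 2862. The fat body was 1.05 higher than the mean of all (standard error 0.26, adjusted p = 0.0015). It was higher than each of the 4 low tissues and lower than hemocyte (-1.54) and head (-0.87). With the floor raised to 1000 its difference from the mean was 0.05 and no longer passed, whereas the other 4 probes passed under all 32 alternatives.

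**Figure D3:**
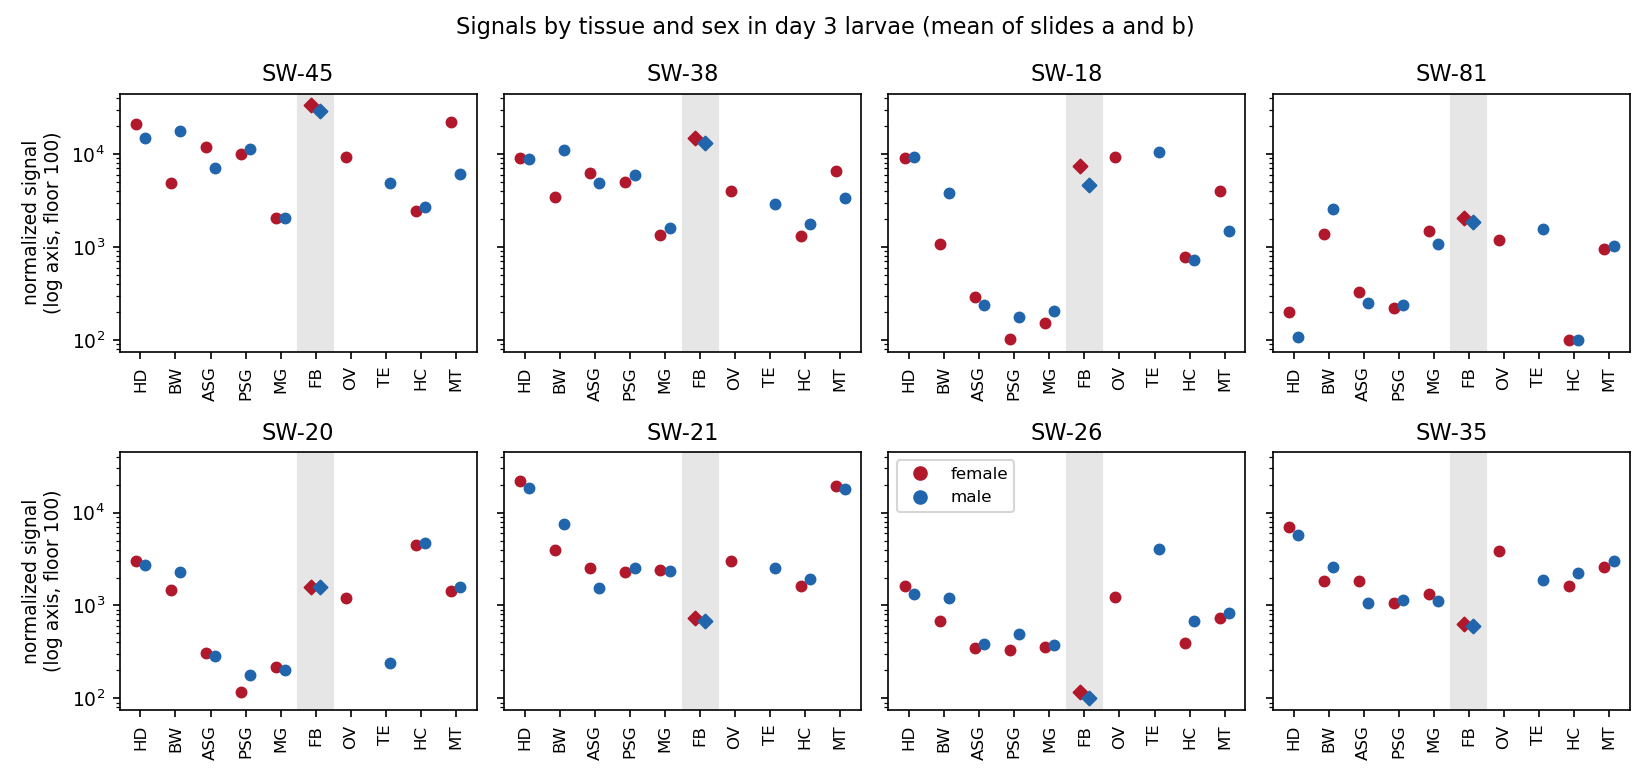
Normalized signals (log axis, floor of 100) of 8 probes in the 18 day 3 specimens, as the mean of slides a and b, with females in red, males in blue and the fat body as diamonds on grey. SW-45 and SW-38 are highest in the fat body, SW-18, SW-81 and SW-20 are high in some tissues besides it, and SW-21, SW-26 and SW-35 are lowest in the fat body.

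Probes that were lower in the fat body than in the rest were of different kinds. For SW-21, a probe at 1000 or more in every other tissue, the fat body had 653 and 805 in the female and 798 and 557 in the male. The lowest of the other tissues was the hemocyte at 1775, and head and malpighian tubule had 20041 and 18589. The difference was -2.54 (standard error 0.30, adjusted p = 1.06e-06), and the fat body passed as lower against each of the 9 tissues, from -1.35 (hemocyte) to -4.85 (head). Both fat body specimens lay below all 16 others.

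SW-26 was the other probe that was lower than in all 9 tissues. The 4 fat body arrays gave 169, 63, 82 and 120, and the means of the other tissues ran from 359 in the anterior silk gland to 4099 in the testis. The difference was -2.74 (standard error 0.28, adjusted p = 2.55e-07). As 2 of the 4 arrays lay under 100, the size of this difference depends on the floor, and it was -0.33 with a floor of 1000, which passed. The differences from testis and ovary were -5.10 and -3.35.

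SW-35 and SW-69 lay closer to the other tissues. SW-35 was at 648, 606, 580 and 627 in the fat body and at 1101 (posterior silk gland) to 6354 (head) elsewhere, a difference of -1.80 (standard error 0.28, adjusted p = 2.94e-05), with 8 of 9 tissues passed. SW-69 was at 832 and 891 in the female and 1240 and 1246 in the male, and at 1651 to 15067 in the other tissues, a difference of -1.89 (standard error 0.31, adjusted p = 5.15e-05), with 7 tissues passed. For both probes all 16 other specimens lay above the fat body specimens.

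SW-17 and SW-41 were close to the limit of the array in the fat body, at 59 to 134 and at 41 to 113. Both were lowest in the fat body among the 10 tissues, and the means elsewhere were 241 to 1983 for SW-17 and 210 to 1639 for SW-41, with the posterior silk gland lowest and the head highest. The differences were -2.70 and -2.51 (standard errors 0.30 and 0.29). At signals this low, both differences no longer passed when the floor was raised to 1000.

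SW-8, SW-40, SW-6 and SW-54 were dim in the fat body and at or near the floor in 1 to 4 other tissues as well. SW-8 had 39 to 151 in the fat body, lay at the floor in ovary and testis and at 145 in the hemocyte, and had 1215 to 60447 in head, body wall, silk gland, midgut and malpighian tubule. The difference was -3.10 (standard error 0.31, adjusted p = 2.55e-07). SW-40, tied to miR-228, had 124 to 446 in the fat body, 1662 to 2039 in body wall, testis and midgut and 3493 to 6032 in silk gland, head and malpighian tubule, and it differed by -2.68 (standard error 0.33, adjusted p = 1.56e-06). SW-6 lay under 100 on all 4 fat body arrays and at the floor in ovary, testis and hemocyte, against 4129 in the head and 3738 in the body wall. Its difference from the mean of the others was -1.94, measured from the floor, so the true size may be larger. SW-54 had 141 to 496 in the fat body and 59592 in the malpighian tubule, where spots of SW-54 on 4 arrays and of SW-8 on 2 lay near the ceiling of the scanner, so that the size of these 2 differences from the tubule cannot be read. The difference of SW-54, -1.74, fell to -0.62 after centring of medians and no longer passed.

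The rest of the expressed probes that passed as lower did so by less. They were SW-59 (-1.23, fat body lowest of the 10 tissues at 1336 to 2338), SW-46 (-1.06, at 1324 to 1674), SW-55 (-0.87, at 1141 to 1533) and SW-9 (-0.71, at 2267 to 3734). The calls of SW-59, SW-46 and SW-55 were lost both on centring and on quantile normalization. SW-9 had an adjusted p of 0.0389, turned to 0.03 after centring of medians, and did not pass when either fat body specimen was left out. Without the female fat body SW-59 (-0.92), SW-55 (-1.05) and SW-54 (-1.03) did not pass either, nor did SW-46 (-0.94) and SW-55 (-0.70) without the male. SW-72, at 3982, 4271, 3730 and 3248 in the fat body, did not pass (0.51, adjusted p = 0.21), yet it was far above the silk gland sections, at 218 and 175. In the 8 tissues that had both sexes, SW-72 passed at 0.85 and SW-7 at -1.10, with sex as a block or without it.

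Among 10 miRNAs listed for roles in metabolism or insulin and steroid signalling in Drosophila (miR-14, miR-278, miR-277, miR-8, let-7a, miR-100, miR-305, miR-275, miR-276-3p and bantam), 5 were tied to 6 probes. Of these 6, 1 was higher in the fat body at day 3 (SW-45, miR-8), 2 were lower (SW-41, miR-275, and SW-55, miR-276-3p) and 3 did not pass (SW-25, bantam, at 0.26, and SW-53 and SW-76, both let-7a, at -0.57 and -0.20). In the later stages SW-45 was higher, SW-55 was lower and 4 did not pass. Over all tested probes, 9.09% passed as higher and 60% as lower at day 3, and 4.82% and 25.3% at the later stages. Both calls of SW-55 were lost on centring of medians and on quantile normalization. The study lists sex ratios for miR-278, miR-277, miR-100 and miR-305 in 1 tissue each, and none for miR-14. The rule could not tie them, so the counts above leave them out. In that tissue SW-35 matched miR-305 (-1.80 at day 3) and SW-74 matched miR-277 (-1.44), both lower in the fat body. SW-61 matched miR-100 (-0.22, did not pass). SW-37 (-1.22, lower), SW-50 (-0.41, did not pass) and SW-86 (not tested) each matched miR-278. The probes tied to miRNAs of the Hox cluster, SW-1 (miR-10b-3p) and SW-75 (miR-10b-5p), did not pass at day 3, at -0.28 and -0.31. That list also holds miR-iab-4-5p and miR-iab-4-3p, which have no sex ratios in the study and could not be tied. The paper lists miR-iab-4-5p in body wall, midgut, fat body, ovary, testis and malpighian tubule. SW-81, higher in the fat body (1.86), had means of 975 to 1966 in these tissues and 100 to 282 elsewhere. It was left without a name.

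The 51 probes that were not tested had fat body means of 764 or less. The highest was SW-103, which is described here because of its values and lies outside the rule for naming probes. It had signals of 630, 950, 744 and 731 in the fat body and at most 282 in any other day 3 specimen (a male head). On the fat body arrays of the later stages it lay at 11 to 86, below the floor. The next in level, SW-91, lay at 384 to 487 in the fat body and reached 1045 in the male body wall.

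To see which tissues were most similar to the fat body, it was set against each of them. Over the 9 pairs, 66 comparisons passed with the fat body higher and 210 with it lower. Head and malpighian tubule differed in most probes: 46 of 55 (83.6%) passed against the head, with 1 higher in the fat body (SW-81) and 45 lower, and 49 (89.1%) against the malpighian tubule, with 4 higher and 45 lower. In the body wall, 42 (76.4%) passed, 4 of them higher in the fat body. These 3 tissues have higher array medians than the fat body, and after centring of medians the split was 8 higher and 23 lower against the head, 22 and 19 against the malpighian tubule and 27 and 10 against the body wall.

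The silk gland and the midgut lay in between. Against the anterior silk gland 32 probes (58.2%) passed, with 9 higher and 23 lower in the fat body, and against the posterior silk gland 25 (45.5%), with 10 and 15. The fat body exceeded both sections in SW-18, SW-72, SW-68, SW-81 and SW-20, and it lay below both in SW-8, SW-40, SW-11 and SW-33. In the midgut 30 probes (54.5%) passed, 8 of them higher, with SW-18 (5.10), SW-45 (3.94), SW-38 (3.25) and SW-20 (2.91) leading, and 22 lower, with SW-7 (-3.53) and SW-8 (-3.43) leading.

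Ovary and testis had the fewest probes that differed from the fat body, and the hemocyte was the one tissue with many more higher than lower in the fat body. Of the 55 probes, 13 (23.6%) passed against the ovary (4 higher, 9 lower), 11 (20%) against the testis (6 higher, 5 lower) and 28 (50.9%) against the hemocyte (20 higher, 8 lower). With 1 specimen each, the gonads have a larger standard error (median 0.50 against 0.41 for the other pairs), so these low counts need not mean close levels. The median size of the differences was 0.50 for the ovary, 0.83 for the testis, 0.90 for the posterior silk gland, 1.02 for the midgut, 1.04 for the hemocyte and 2.47 for the head. As a description across 55 probes, which are not independent replicates, the fat body had Pearson correlations of 0.809 with the ovary, 0.762 with the testis, 0.681 with the hemocyte, 0.660 with the head and 0.423 with the malpighian tubule. The overlap of expressed probes did not follow this order. All 20 of the fat body were expressed in body wall and malpighian tubule (30.8% of the 65 and 40% of the 50 there). Blank control spots read 1889 to 2712 on the body wall arrays, all above the expression threshold. On the malpighian tubule arrays they read 173 to 2160. How much of the overlap with these tissues is background was not tested. In the head 19 were expressed (42.2% of 45), in the ovary 18 (75% of 24) and in the hemocyte 15 (75% of 20).

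Single probes still separated the fat body from these 3 tissues. Against the ovary, SW-38, SW-52 (1.52), SW-33 and SW-106 were higher, and SW-26 (-3.35), SW-56 (-3.22), SW-41 (-2.94) and SW-17 (-2.84) were the probes with the largest differences the other way. Against the testis, SW-20 (2.71), SW-45 (2.69) and SW-38 (2.25) were higher, and SW-26 (-5.10), SW-70 (-3.11) and SW-40 (-2.79) lower. Against the hemocyte, which floats in the hemolymph that bathes the fat body, SW-81 (4.30), SW-27 (3.88), SW-68 (3.77) and SW-45 (3.61) were higher, and SW-17 (-3.15), SW-41 (-2.95) and SW-26 (-2.12) lower. The hemocyte arrays were dimmer than those of the fat body, and after centring of medians the split turned to 10 higher and 30 lower.

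**Figure D4:**
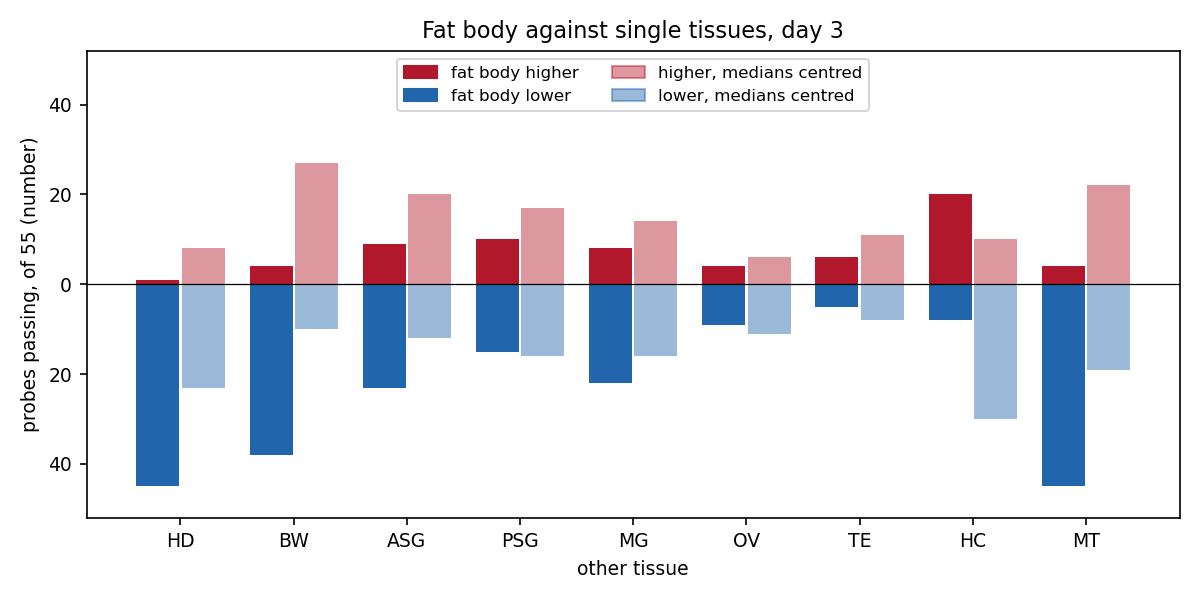
Number of the 55 tested probes that passed with the fat body higher (red, upwards) or lower (blue, downwards) than each other day 3 tissue, with the counts after centring of array medians in pale bars. The fat body was lower in 45 probes against head and malpighian tubule, and the balance against body wall, hemocyte and malpighian tubule turns with the scaling.

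The sexes were close in the fat body. A probe was called sex-biased if 1 sex reached 1000 and exceeded the other by 1.5-fold on slide a and again on slide b, which 3 of 106 probes (2.83%) did. There is 1 specimen per sex, so these are values without a test. SW-18 was higher in the female, by 1.64-fold on slide a (7638 against 4662) and by just over the limit on slide b (7102 against 4729). Elsewhere its female to male ratio was 2.66 in the malpighian tubule, 0.28 in the body wall and 0.97 in the head.

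SW-68 and SW-7 were higher in the male. SW-68 had 914 and 1083 in the female and 2852 and 2338 in the male, ratios of 3.12 and 2.16. SW-7 had 531 and 768 in the female and 1347 and 1332 in the male, ratios of 2.54 and 1.74. Both probes, tied to miR-1, were also higher in the male body wall, by 5.66-fold and 5.54-fold over the mean of slides, but lower in the male malpighian tubule (female to male ratios of 1.65 and 1.76) and midgut (1.13 and 1.39), and their highest tissue means were those of the head, at 19234 for SW-68 and 76049 for SW-7. The tie of SW-68 to miR-1 rests on its sex ratios in body wall and fat body, where the study lists miR-1 as male-biased. The male excess of SW-68 in these tissues is therefore not separate from its name. The part of muscle in the male fat body values was not tested. Among dimmer probes, SW-106 (226 and 279 in the female, 622 and 1002 in the male) and SW-54 (141 and 162 against 496 and 333) were higher in the male by 2-fold or more on both slides. So was SW-100 (73 and 118 against 264 and 339). After centring of medians SW-7 no longer met the rule, while SW-57 and SW-106 did.

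The 4 fat body specimens from day 7 larvae, spinning larvae, prepupae and pupae gave a set of values that the day 3 contrasts did not use. The question was whether the probes that mark the fat body at day 3 do so later. They were compared with body wall, silk gland and midgut, 1 specimen per tissue and stage, and these arrays were scaled in another way, so no level is compared with day 3. The labels of the pupal specimen give both day 1 and day 2. Of 83 probes, the fat body was higher for 4 (4.82%) and lower for 21 (25.3%). Centring of medians gave 11 higher and 9 lower, and quantile normalization 13 and 8. The median difference was -0.61, and -0.05 after centring. All 4 fat body specimens shared 1 number in the names of their array files with 4 specimens of the other tissues. The fit within these 8 with tissue and stage has 1 residual degree of freedom, so its values are given without p, beside the fit without stage. Their blank control spots reached 187 to 2075.

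SW-45 passed at the later stages too. Its signals were 59654, 44172, 38635 and 41659 from day 7 to the pupa, against 5301 to 38967 in the other tissues. The difference was 1.37 (standard error 0.34, adjusted p = 0.00138), 1.65 among the 8 specimens of its number and 1.71 there without stage (adjusted p = 0.0244). At each stage the fat body was the highest of the tissues taken.

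SW-18 had 13427, 21088, 14121 and 14509 in the later fat body and 1740 to 6387 in the other tissues, with no overlap. The difference was 2.26 (standard error 0.39, adjusted p = 5.77e-06), 2.45 among the 8 specimens and 2.37 without stage (adjusted p = 0.00539). SW-100, which was not expressed in the day 3 fat body, also lay above the others, with 1549, 3519, 1775 and 4943 against 66 to 1334 and a difference of 2.56 (standard error 0.50, adjusted p = 5.5e-05). SW-38, with a difference of 0.58 (adjusted p = 0.204), SW-20, with 0.69 (adjusted p = 0.169), and SW-81, with -0.39 (adjusted p = 0.422), did not pass. SW-38 and SW-20 passed after centring of medians, at 1.16 and 1.27, but not among the 8 specimens without stage, at 0.93 (adjusted p = 0.114) and 0.89 (adjusted p = 0.237).

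SW-9 passed in opposite directions in the 2 experiments, a difference that was not tested. At day 3 the fat body lay below body wall, silk gland and midgut (2804 against 5299 to 8503). From spinning to the pupa it had 77566, 42982 and 70820 and lay above every other tissue of the same stage, with spots near the ceiling of the scanner on 3 of the fat body arrays, while at day 7 it had 11128 against 5678 to 19873. The later difference was 1.01 (adjusted p = 0.0311), 0.78 after quantile normalization (adjusted p = 0.191) and 1.35 among the 8 specimens without stage (adjusted p = 0.242).

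Among the probes that were lower later, SW-7 and SW-68 had the largest differences, -2.87 (standard error 0.40, adjusted p = 8.27e-08) and -2.77 (standard error 0.41, adjusted p = 1.94e-07). SW-7 had 1664, 1043, 11011 and 2175 in the fat body. Body wall and midgut were far above it, at 23735 to 66465 with spots near the ceiling on 7 arrays, and the silk gland was near it, at 1812 to 4651. SW-68 behaved alike, with 1094, 944, 6422 and 2492 in the fat body, 766.5 to 4088 in the silk gland and 20964 to 48302 in the other 2 tissues. SW-28 (-2.32), SW-60 (-2.16) and SW-93 (-2.02) followed. SW-28 moved to -1.35 without the day 7 fat body and did not pass after quantile normalization (-1.56, adjusted p = 0.0613) or with the number as a block (-2.14, adjusted p = 0.131), and its slides of the spinning midgut read 7 and 7234. SW-60 lay at 58 to 290 in the fat body and did not pass among the 8 specimens without stage (-0.99, adjusted p = 0.353).

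**Figure D5:**
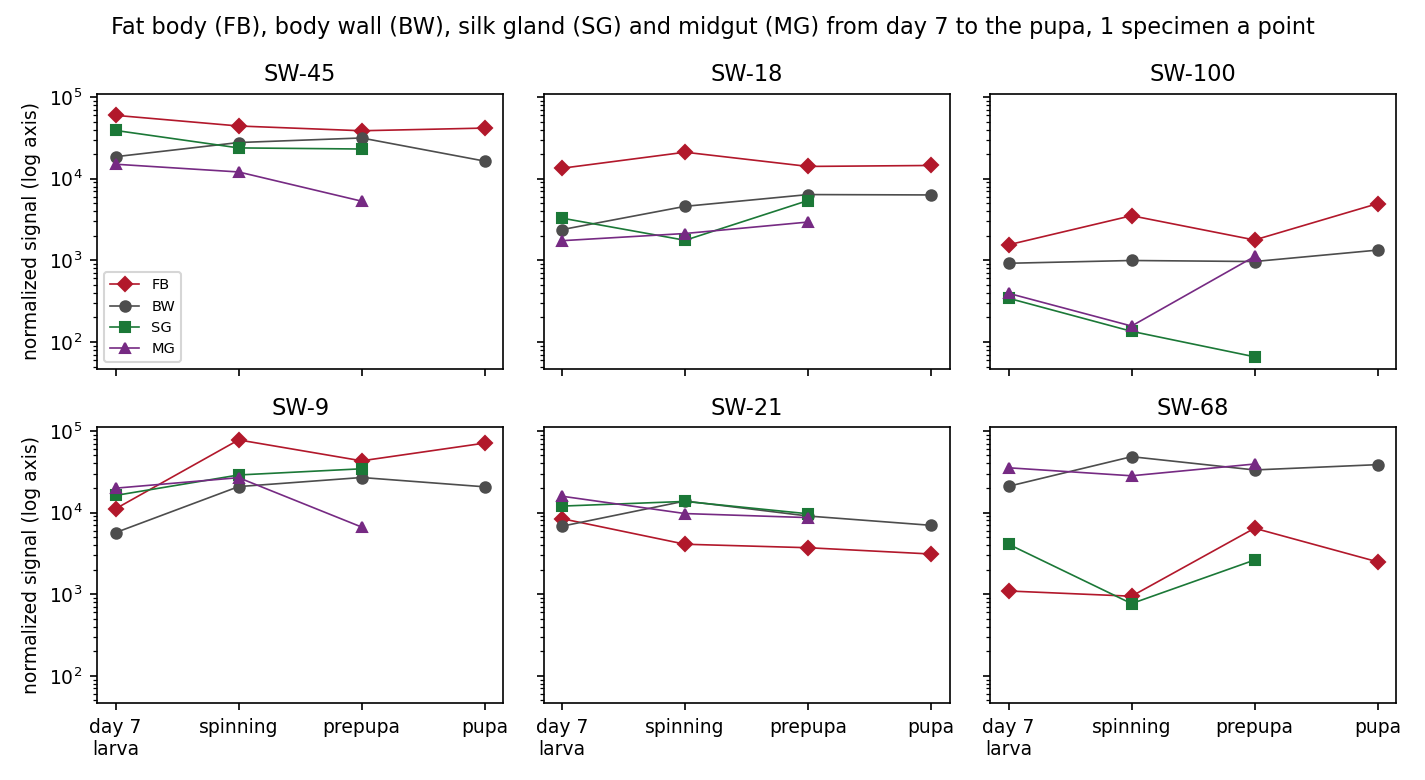
Normalized signals (log axis) of 6 probes from day 7 larvae to pupae, with 1 specimen per point as the mean of slides a and b and lines joining the stages of a tissue: fat body red, body wall grey, silk gland green and midgut purple. SW-45, SW-18 and SW-100 are highest in the fat body at every stage, SW-9 from spinning on, and SW-68 shows fat body and silk gland together below the others.

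The day 3 data were then set against the same 3 tissues, with the silk gland sections averaged, a contrast added after the data had been seen. Of the 55 probes, the fat body was higher for 6 (10.9%) and lower for 33 (60%), and 21 higher and 14 lower after centring. SW-45 (2.45) and SW-18 (3.87) passed as higher in both experiments, which is 2 of the 6 and 2 of the 4 higher probes. The other 4 higher at day 3 were SW-38, SW-20, SW-72 and SW-81. As lower, 14 probes passed in both, of 33 (60%) at day 3 and of 21 (25.3%) later. SW-100, which passed later as higher, and SW-60 and SW-98, which passed later as lower, were not tested at day 3. These could not pass in both. Whether the overlap exceeds what such shares alone would give was not tested. They included SW-21, at 8405, 4089, 3706 and 3104 in the later fat body and -1.12 from the other tissues (adjusted p = 0.0172), SW-40 (-1.87) and SW-69 (-1.44). SW-21 and SW-69 did not pass later after centring of medians (-0.54 and -0.85), whereas SW-40 did (-1.29). SW-26, lower than all tissues at day 3, had a later difference of -0.87 that did not pass (adjusted p = 0.116). The day 3 difference of SW-9 was -1.24 (adjusted p = 0.00144), and 0.14 after centring, which did not pass.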

How the data were processed

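Small RNA was labelled with Cy3 and hybridized to a one-colour array of 106 miRNA probes, 3 spots per probe. Per the methods, slides were read with LuxScan. The authors subtracted the local background from spot intensity, gave 10 to net signals that were not above 0, exchanged outlier spots and scaled each array by 1 factor, from U6 and 5S rRNA for day 3 larvae and from a global median for later stages (a global mean in the results text). The deposited values used here are these scaled intensities, linear, as means of 3 spots. Net signals before scaling were an alternative. 5S rRNA spots were close to the scanner's ceiling (net signals of 63429 to 63814 on the fat body arrays).

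Signals below a floor of 100 were raised to it, log2 was taken, and both slides of a specimen were averaged. A means model of 10 tissues was fitted with limma 3.58.1 in R 4.3.3 (lmFit, eBayes with a variance trend) to the 55 probes that reached 1000 in at least 2 of 18 specimens. Ovary and testis, with 1 specimen each, were assumed to vary like the other tissues. For day 7 to the pupa, tissue and stage were additive factors, for the 83 probes that reached 1000 in at least 3 of 14 specimens. P-values were adjusted by Benjamini-Hochberg within each contrast, and values under 0.05 passed. Python 3.11.15, pandas 2.3.3 and numpy 2.4.6 made the summaries. The fits were tested on simulated data. Of true log2 differences of 1, 65.3% were recovered at day 3 and 23.1% at the later stages. Of differences of 2, 99.9% and 96% were. A probe that did not pass, above all at the later stages, may thus still differ.

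Named were all probes that reached 1000 in a day 3 fat body specimen, up to 10 per direction with the largest differences from the mean of the other tissues, those passing in 1 direction against all 9 tissues, those 1.5-fold apart between the sexes, and up to 5 per direction at the later stages. Members, rules and lists were chosen with earlier results of these data known. The ties by sex ratio lie outside this rule. Of the lists fixed with it, those of metabolism, the Hox cluster and miR-1 of muscle are given for tied probes, that of silk gland and tubule has 1 tied probe (SW-11, miR-274; -1.72 at day 3, adjusted p = 0.0155), and those of nerve and gut have none. No miRNA of the nerve and gut lists has sex ratios given in more than 1 tissue, so none could be tied.

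Alternatives were other floors, no filter, centring of array medians, quantile normalization, net signals, single slides, a random block for the specimen, no variance trend, sex as a block, sets of the number in the array file names, the silk gland as 1 tissue and the omission of each specimen. The meaning of that number is not stated in the sources used here. The number of arrays limits the precision.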

Additional observations from a re-analysis of the deposited data

Results flagged for a closer look

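SW-76 had opposite signs in the same contrast at the 2 times. At day 3 the fat body lay above the mean of body wall, silk gland and midgut by 0.10 in the female and 0.06 in the male on the log2 scale. In all 4 later specimens it lay below the mean of the other tissues of its stage. The differences were -0.13 at day 7, -0.51 at spinning, -0.61 in the prepupa and -0.86 in the pupa, and the fitted difference was -0.58. Single tissues differed, as the fat body was above the body wall at day 7 (4538 against 1741) and above the silk gland at spinning (7194 against 6460.5). It was below each of the remaining specimens of its stage. Neither contrast passed its own test, and the difference between them was not tested. The day 3 value passed after centring of medians (1.46, adjusted p = 0.00172) and after quantile normalization (0.90, adjusted p = 0.00678), where the later values were 0.00177 and -0.05.

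The control spots named blank had signals up to 2075 on the fat body arrays from day 7 to the pupa, above the 11 to 13 on the day 3 fat body arrays. On arrays of the other tissues at these stages they ran from 99 to 4123. What these spots hold is not stated, and their part in the later values was not tested.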

How the results depend on the processing

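Against the mean of the other tissues, the 5 higher and 33 lower probes were 20 lower with a floor of 1000 and 64 lower without a filter (of 106 probes tested), 11 and 16 after centring of medians, 12 and 18 after quantile normalization, and 10 higher without body wall and malpighian tubule. With sex as a replicate block, in the 8 tissues of both sexes, 6 were higher and 35 lower, and the same fit without the block gave 6 and 35; the single pairs gave 56 higher and 195 lower with the block and 56 and 197 without. Among the 31 probes followed at day 3, SW-7 (-1.10) and SW-72 (0.85) passed in both of these fits with equal values, so the block itself changed no call of a named probe. When each specimen was left out in turn, the counts ran from 5 to 8 higher (8 without the male body wall) and from 24 to 36 lower. Over the 9 pairs, the 66 higher and 210 lower were 22 and 102 with a floor of 1000, 337 lower without a filter, 135 and 145 with centred medians and 110 and 140 with quantile normalization, and 45 to 93 and 172 to 244 with a specimen left out. Pairs without body wall and malpighian tubule, or without the gonads, number 7. SW-9 turned from -0.71 to 0.0298 on centring and SW-76 from -0.20 to 0.74 on quantile normalization.

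From day 7 to the pupa, the 4 higher and 21 lower were 39 lower with a floor of 1000, 11 and 9 with centred medians and 13 and 8 with quantile normalization. With the number in the array file names as a block, 11 were lower. Under the number of the fat body alone, the fit with stage has 1 residual degree of freedom, so no calls are counted. Without stage in the model, 10 were lower there (an alternative chosen after seeing the data, as was the fit without the gonads). With a specimen left out, 3 to 5 were higher and 11 to 31 lower, with 11 lower without the day 7 fat body. The 3 sex-biased probes were 5 on slide a alone, 5 on slide b alone and 1 at 2-fold. SW-45, SW-38, SW-18 and SW-81 passed as higher, and SW-21, SW-26, SW-35, SW-69, SW-40, SW-8 and SW-6 as lower, under all 32 alternatives at day 3. Other than through fewer or more probes tested and the floor itself, the cause of these changes was not tested. A background correction by normexp was not run, since the files used give net signals alone. Signals of probes near 100 limit the size of what can be read as lower.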
